A study of Homo sapiens with 6 samples.

Results

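The genes examined are 10 immediate early genes, which cells switch on within minutes of a growth or stress signal without first making new protein. They were chosen by name, with earlier results of these data known, and all 10 were found among the 30618 genes with counts and the 30275 with FPKM values. FOS, FOSB, FOSL1 and FOSL2 form the Fos family, and JUN, JUNB and JUND form the Jun family. EGR1, IER2 and DUSP1 belong to the same early response but to no AP-1 family. The RNA-seq compared ARPE-19 cells, a human cell line of the retinal pigment epithelium, that received a non-targeting siRNA (the NC group, 3 libraries) or an siRNA against the translation initiation factor EIF1 (the siEIF1 group, 3 libraries). Both groups were cultured in 50 mM glucose and transfected with a lipid reagent, so no library of cells in ordinary glucose, without transfection or with an osmotic control enters the comparison. The knockdown rests on the single EIF1 siRNA sequence that the methods print. The replicates of each group were described as independent. The methods describe no brief growth or stress signal before harvest, so the response of these genes to such a signal was not measured.

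AP-1 is a transcription factor made of a pair of basic leucine zipper proteins, typically a Fos protein with a Jun protein or Jun proteins with each other. Fos proteins do not pair stably among themselves, so a Fos subunit needs a partner from another family, most often a Jun protein. Transcription of these genes is typically started by MAP kinases acting on the factors SRF, its ETS partners such as ELK1, and CREB at the promoter, and many of the transcripts are short-lived. DUSP1 is a phosphatase that switches MAP kinases off again and so forms part of the feedback on the same response. In the retinal pigment epithelium, AP-1 is known for its part in stress, inflammatory and wound responses.

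Promoter sequence was matched for 9 of the 10 genes in a RefSeq table (GRCh38.p14), FOSL1 being the exception, and 5 are shown because they belong to genes that fell after EIF1 knockdown (DUSP1, JUN and JUNB) or to classical early genes with almost no reads (FOS and EGR1). Each runs from 250 bases before to 50 bases after the start site, on the strand of the gene. They lie at chr5:172771146-172771445 (minus strand) for DUSP1, chr1:58783998-58784297 (minus strand) for JUN, chr19:12791236-12791535 (plus strand) for JUNB, chr14:75278578-75278877 (plus strand) for FOS and chr5:138465229-138465528 (plus strand) for EGR1. Capitals mark matches on either strand to the AP-1 motif TGACTCA, the cyclic AMP response element TGACGTCA, its core TGACGT, which lies within the full element, the AP-1 variant TGACATCA, the TATA box TATAAA and the CArG box bound by SRF.
DUSP1: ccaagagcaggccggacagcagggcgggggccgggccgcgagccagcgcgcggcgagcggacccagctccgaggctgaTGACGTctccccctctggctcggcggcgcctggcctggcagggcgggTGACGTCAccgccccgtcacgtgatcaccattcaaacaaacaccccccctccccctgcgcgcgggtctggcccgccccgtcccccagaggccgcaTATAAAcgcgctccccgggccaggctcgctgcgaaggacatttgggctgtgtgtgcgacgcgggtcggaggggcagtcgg
JUN: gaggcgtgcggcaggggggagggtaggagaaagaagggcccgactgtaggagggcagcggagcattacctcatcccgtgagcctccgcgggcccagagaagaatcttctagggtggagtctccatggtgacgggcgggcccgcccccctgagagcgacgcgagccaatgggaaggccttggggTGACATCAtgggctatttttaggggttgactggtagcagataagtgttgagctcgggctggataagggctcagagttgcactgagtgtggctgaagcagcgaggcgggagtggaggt
JUNB: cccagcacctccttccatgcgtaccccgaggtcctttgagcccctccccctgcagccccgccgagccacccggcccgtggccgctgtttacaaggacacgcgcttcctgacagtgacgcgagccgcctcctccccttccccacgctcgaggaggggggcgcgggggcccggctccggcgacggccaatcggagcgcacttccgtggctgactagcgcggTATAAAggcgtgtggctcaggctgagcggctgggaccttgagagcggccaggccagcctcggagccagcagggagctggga
FOS: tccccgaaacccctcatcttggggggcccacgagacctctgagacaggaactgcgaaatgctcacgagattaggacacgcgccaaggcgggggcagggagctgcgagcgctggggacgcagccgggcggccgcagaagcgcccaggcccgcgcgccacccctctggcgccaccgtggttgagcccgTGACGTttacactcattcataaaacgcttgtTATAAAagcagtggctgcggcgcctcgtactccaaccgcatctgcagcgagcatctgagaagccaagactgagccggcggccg
EGR1: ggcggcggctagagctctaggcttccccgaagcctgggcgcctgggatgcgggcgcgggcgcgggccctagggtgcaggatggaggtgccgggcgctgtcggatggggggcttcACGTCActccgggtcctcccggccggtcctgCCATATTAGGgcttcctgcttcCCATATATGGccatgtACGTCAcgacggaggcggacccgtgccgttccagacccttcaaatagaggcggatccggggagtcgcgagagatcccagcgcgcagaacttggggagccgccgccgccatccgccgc

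DUSP1 held the full cyclic AMP response element, starting 125 bases before the start site, a further core 172 bases before it, and a TATA box. JUN held the variant TGACATCA at 67 bases before the start site, and JUNB held a TATA box alone. FOS held a core element at 64 bases and a TATA box at 33 bases before the start site. No CArG box was matched for FOS within the window, and sequence further upstream was not searched. EGR1 held a pair of CArG boxes, at 105 and 83 bases, and a core element on either side of them. Of 35116 promoters of this length, the core element was present in 7.98%, the full element in 1.85%, the TATA box in 11.5%, the AP-1 motif in 4.95%, the variant TGACATCA in 2.61% and the CArG box in 1.29%. Among the 9 matched genes, 6 had the core element, 4 the TATA box, 2 the full element (DUSP1 and JUND), 1 the AP-1 motif (FOSL2), 1 the variant (JUN) and 1 the CArG box (EGR1). These matches describe letters in a fixed window and not binding, which was not measured.

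The libraries held 26499929 to 31431479 counts, and CPM values, counts scaled to a common library size, used TMM factors from 0.981 to 1.02. EIF1 itself, the targeted gene, fell in the siEIF1 group to -3.58 on the log2 scale (standard error 0.055, edgeR quasi-likelihood test, Benjamini-Hochberg adjusted p = 1.08e-13). Retinal pigment epithelium markers were partly expressed. BEST1 had a mean count of 18111, OTX2 of 2194 and MITF of 1449, while RLBP1 had 30.7. The pigment genes TYRP1, DCT and TYR had 7, 1.67 and 0.67, and RPE65, TTR and TRPM1 were not among the genes with counts. Whether reads of an overlapping gene enter the BEST1 count was not tested, as the strand setting of the counting is not given. Of 12 markers of other retinal, vascular and immune cells, 9 had counts and 3 passed the filter on low counts. Their summed level was 115 to 139.8 CPM in NC libraries and 161 to 186 CPM in siEIF1 libraries, nearly all of it the pericyte marker PDGFRB, which rose (0.60, standard error 0.11), and RBPMS. The endothelial markers CDH5 and PECAM1 had mean counts of 0.33 each, and PTPRC and AIF1 were not analysed here. Of the 17 epithelial markers, 11 were tested, 3 rose (RLBP1, KRT8 and KRT18) and 0 fell. These are 27.3% higher and 0% lower, against 10.2% higher and 10.4% lower over all tested genes. Their summed level was 2996 to 3146 CPM in the NC and 3049 to 3478 CPM in the siEIF1 libraries. Of this, the keratin gene KRT18 alone held 1200 to 1260 CPM in the NC and 1383 to 1490 CPM in the siEIF1 libraries. The part of these markers in the results was not tested.

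The AP-1 transcripts of these cells came almost wholly from 5 of the 7 subunit genes. Levels between genes were compared by FPKM, which is scaled to transcript length. The lengths used are not given in the sources used here, so the order of close genes such as JUNB and IER2 may depend on them. In the NC group the order was DUSP1 (110.05 ± 1.19, SD, n = 3), JUND (90.7 ± 1.28), JUN (68.4 ± 0.786), FOSL1 (31.7 ± 3.36), JUNB (17.6 ± 2.40), IER2 (12.6 ± 0.229) and FOSL2 (8.11 ± 0.15). DUSP1 was above 99.2% of all genes with FPKM values and FOSL2 above 87.2%. Then came a wide gap down to EGR1, at 0.097 ± 0.055, FOSB, at 0.090 ± 0.017, and FOS, at 0.023 ± 0.0058. Between neighbours in this order the ranges of the NC libraries overlapped for EGR1 and FOSB only. In the siEIF1 group the order of DUSP1 and JUND was exchanged, with JUND at 83.4 ± 1.84 and DUSP1 at 81.6 ± 2.19, but the libraries overlapped, and so did those of JUNB (14.2 ± 1.18) and IER2 (13.2 ± 0.848) and of EGR1 and FOSB.

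**Figure D1:**
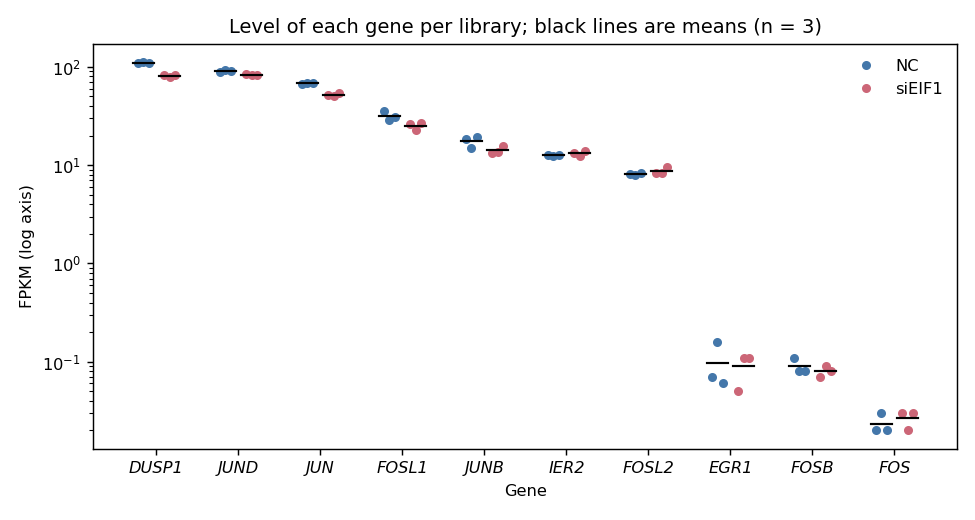
FPKM of the 10 genes in each library (points, log axis), with genes ordered by their NC mean and black lines at the group means (n = 3). DUSP1, JUND, JUN, FOSL1, JUNB, IER2 and FOSL2 lie between 8.01 and 111 FPKM in the NC libraries, and EGR1, FOSB and FOS lie at or below 0.16 FPKM.

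FOS, the gene after which the Fos family is named, was close to silent in every library. Its counts were 2, 3 and 2 in NC replicates 1 to 3 and 4, 2 and 3 in siEIF1 replicates 1 to 3. With so few reads, FOS was removed by the filter on low counts. No fold change is given for it. FOSB, the closest relative of FOS, had 19, 16 and 15 counts in the NC and 14, 18 and 17 in the siEIF1 libraries. The gene ERCC1 overlaps FOSB on the other strand, and whether reads of ERCC1 enter these counts was not tested. EGR1, a zinc finger factor induced through SRF, had 7, 18 and 6 counts in the NC and 6, 13 and 12 in the siEIF1 libraries. The groups overlapped for all of them. The log2 fold change was -0.14 for FOSB (standard error 0.31, edgeR quasi-likelihood test, Benjamini-Hochberg adjusted p = 0.80) and -0.11 for EGR1 (standard error 0.48, edgeR quasi-likelihood test, Benjamini-Hochberg adjusted p = 0.91). These standard errors are wide enough that a change of the size seen in the well-counted genes would not have been detectable. The direction for EGR1 rested on single libraries, since its log2 fold change became 0.53 when NC replicate 2 was left out and 0.19 when siEIF1 replicate 1 was. For FOSB it became -0.0042 when NC replicate 1 and -0.017 when siEIF1 replicate 1 was left out. Of 40 other immediate early genes with counts, 36 passed the filter, and the 4 that failed it were EGR2, NR4A3, GADD45G and CXCL2.

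Of the 9 genes that passed the filter, 4 fell in the siEIF1 group at an adjusted p under 0.05 (DUSP1, JUN, FOSL1 and JUNB) and 0 rose. Over all 16749 tested genes, 10.4% were called lower and 10.2% higher at this limit. At an unadjusted p under 0.05 edgeR gave 5 lower and 1 higher, FOSL2, while DESeq2 gave 4 and 0 and limma on log2(FPKM + 1) gave 5 and 0. No member passed the fold limit of the methods (above 2 or below 0.5) by any of these tools, also at an unadjusted p under 0.05, against 1.71% of all tested genes by edgeR. The changes were therefore modest, and the median log2 fold change of the 9 genes was -0.14, against 0.0033 over all tested genes. In RNA from whole cultures, fewer cells that express a gene and less RNA of it per cell cannot be told apart.

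**Figure D2:**
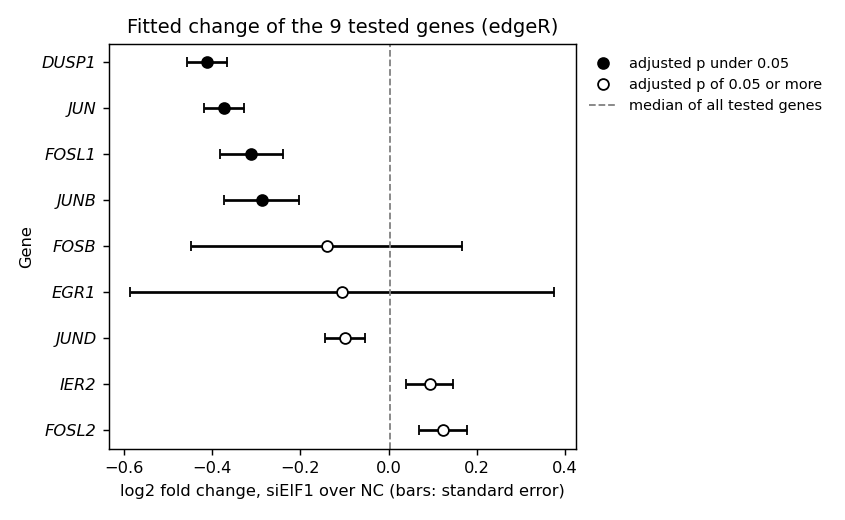
Log2 fold change of the 9 tested genes, siEIF1 over NC (points), with standard errors (bars), filled where the edgeR adjusted p was under 0.05. The dashed line marks the median of all tested genes, and the 4 filled points lie between -0.41 and -0.29.

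DUSP1, the MAP kinase phosphatase, showed the lowest fitted value of the 9. Its CPM was 272, 275 and 264 in NC replicates 1 to 3 and 205, 201 and 202 in siEIF1 replicates 1 to 3. The siEIF1 libraries were all lower than the NC libraries, with a gap wider than the spread within either group. It fell by 24.9%, or -0.41 on the log2 scale (standard error 0.045, edgeR quasi-likelihood test, Benjamini-Hochberg adjusted p = 3.21e-05). Leaving out any single library kept the value between -0.43 and -0.40. It was also the one member still called when the test was made against a fold of 1.2 (edgeR glmTreat, Benjamini-Hochberg adjusted p = 0.016). DUSP1 has 4 exons and lies on the minus strand of chromosome 5 from 172768096 to 172771195 (GRCh38, GENCODE release 44), where 1 annotated gene on the other strand overlaps it.

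JUN, the founding Jun protein and a target of the JNK kinases, fell to a similar degree. Its CPM was 299.7, 309 and 299 in the NC and 229, 234 and 237 in the siEIF1 libraries. The groups were again fully apart, and neither spread by more than 10 CPM. JUN fell by 22.8%, or -0.37 on the log2 scale (standard error 0.045, edgeR quasi-likelihood test, Benjamini-Hochberg adjusted p = 7.86e-05). The value stayed between -0.39 and -0.36 with each library left out. JUN is a gene of 1 exon on the minus strand of chromosome 1, from 58776845 to 58784048, and no other annotated gene overlaps it. The profiles of JUN and DUSP1 over the 6 libraries were alike, with a Pearson r of 0.99 between their log2 CPM values, points that share library depth and the split into groups.

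FOSL1, also called FRA1, was the main Fos family transcript in these cells. Its CPM was 81.3, 66.3 and 71.0 in the NC and 60.7, 54.8 and 60.6 in the siEIF1 libraries. The groups did not overlap, but NC replicate 1 stood above the other NC libraries and the nearest libraries of the groups were only a few CPM apart. FOSL1 fell by 19.4%, or -0.31 on the log2 scale (standard error 0.072, edgeR quasi-likelihood test, Benjamini-Hochberg adjusted p = 0.00786). Without NC replicate 1 the value was -0.23, with an adjusted p of 0.034 from the same edgeR test. FOSL1 has 4 exons on the minus strand of chromosome 11, from 65892049 to 65900573, with no overlapping annotated gene.

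JUNB, a Jun protein that often opposes JUN in growth control, was the least certain of the 4. Its CPM was 41.3, 33.7 and 43.0 in the NC and 30.3, 31.8 and 34.5 in the siEIF1 libraries, so that NC replicate 2 lay below siEIF1 replicate 3 and the groups overlapped. The log2 fold change was -0.29 (standard error 0.086, edgeR quasi-likelihood test, Benjamini-Hochberg adjusted p = 0.029). The call was lost without NC replicate 1 (-0.25), NC replicate 3 (-0.22), siEIF1 replicate 1 (-0.25) or siEIF1 replicate 2 (-0.28), with edgeR adjusted p-values from 0.071 to 0.14. It was also lost with limma on FPKM values. JUNB is a gene of 1 exon on the plus strand of chromosome 19, from 12791486 to 12793315, overlapped on the other strand by HOOK2.

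**Figure D3:**
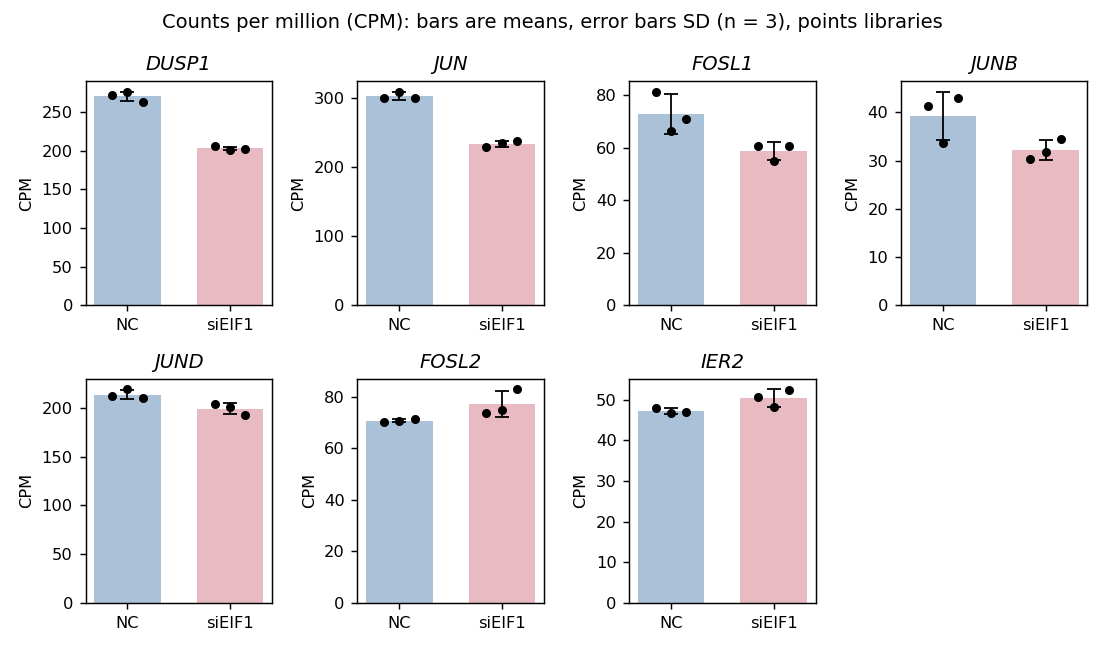
CPM of the 7 well-counted genes per group, with means (bars from 0), SD (error bars, n = 3) and single libraries (points). The libraries of the groups are apart for DUSP1, JUN and FOSL1 and overlap for JUNB, while JUND, FOSL2 and IER2 differ by less than 10% between the group means.

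JUND, the most abundant AP-1 subunit and the Jun protein least dependent on a stimulus, did not pass the test. Its CPM was 212, 219 and 209.6 in the NC and 204, 201 and 193 in the siEIF1 libraries, which do not overlap. The log2 fold change was -0.10 (standard error 0.046, edgeR quasi-likelihood test, Benjamini-Hochberg adjusted p = 0.15). JUND lies on the minus strand of chromosome 19, from 18279694 to 18281622, in 1 exon.

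FOSL2, also called FRA2, and IER2, a nuclear protein of the early response, were the members with positive values. FOSL2 had a CPM of 70.4, 70.7 and 71.5 in the NC and 73.7, 74.9 and 82.9 in the siEIF1 libraries. The groups did not overlap, and siEIF1 replicate 3 stood above the rest. The log2 fold change was 0.12 (standard error 0.054, edgeR quasi-likelihood test, Benjamini-Hochberg adjusted p = 0.13), and it was 0.068 without siEIF1 replicate 3. IER2 had a CPM of 48.0, 46.7 and 47.0 in the NC and 50.6, 48.1 and 52.3 in the siEIF1 libraries. These groups were apart by a margin of under 1 CPM, and the log2 fold change was 0.094 (standard error 0.053, edgeR quasi-likelihood test, Benjamini-Hochberg adjusted p = 0.25). Counts of FOSL2, which an annotated gene overlaps on each strand, and of IER2, which 2 overlap on the other strand, are less certain than those of JUN. In CPM, the groups did not overlap for 4 members that were lower (DUSP1, JUN, FOSL1 and JUND) and 2 that were higher (FOSL2 and IER2). In FPKM the groups overlapped for both FOSL2 and IER2. Over all tested genes the groups were apart in the lower direction for 18.9% and in the higher direction for 18.2%.

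The summed FPKM of the 7 AP-1 subunit genes was 219, 213 and 218 in the NC and 185, 178 and 188 in the siEIF1 libraries. The siEIF1 libraries all lay below the NC libraries. The Jun family made up most of the sum, with 176.7 ± 1.38 FPKM in the NC and 149.8 ± 2.69 after EIF1 knockdown (SD, n = 3). The Fos family held 39.9 ± 3.36 and 34.0 ± 2.48, of which FOS and FOSB together contributed almost nothing. The Fos share of the sum was 18.4% ± 1.3 in the NC and 18.5% ± 0.838 after EIF1 knockdown, so it moved by less than the spread between libraries. Within the sum, the share of JUN was 31.6% ± 0.826 in the NC and 28.3% ± 0.554 after EIF1 knockdown, and that of JUND was 41.9% ± 1.24 and 45.4% ± 1.40. FOSL2 held 3.74% ± 0.069 and 4.74% ± 0.294, FOSL1 14.6% ± 1.35 and 13.7% ± 0.706, and JUNB 8.13% ± 1.0 and 7.74% ± 0.504. These shares are given as a description, with no test.

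**Figure D4:**
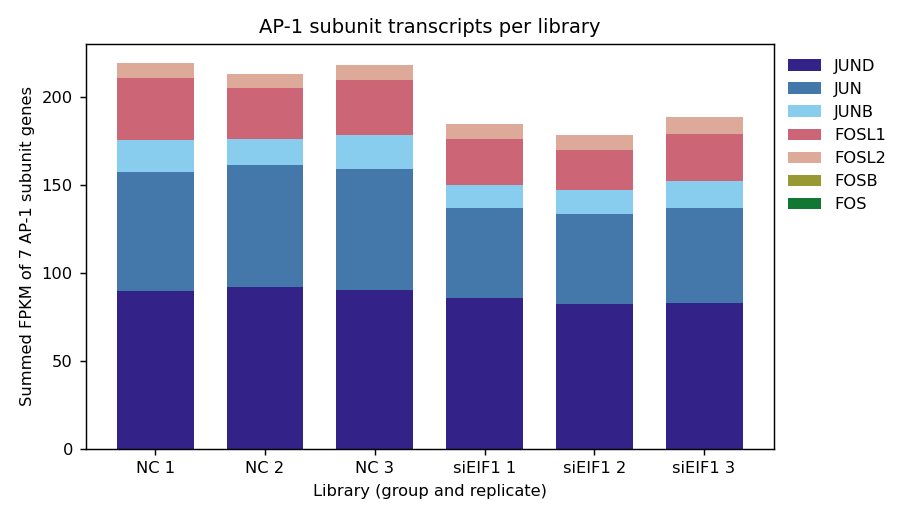
Summed FPKM of the 7 AP-1 subunit genes in each library, stacked by gene from 0. JUND, JUN and FOSL1 fill most of each bar, FOS and FOSB are too low to be seen, and the NC bars reach 213 to 219 FPKM against 178 to 188 in the siEIF1 libraries.

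Since a fold change of each gene alone does not say whether members of a family moved apart, the ratio of well-counted subunits was compared within families. The FOSL1 to FOSL2 ratio, in FPKM, was 4.38, 3.56 and 3.77 in the NC and 3.12, 2.78 and 2.78 in the siEIF1 libraries. The log2 ratio differed by -0.43 in CPM, with no overlap between the groups (two-sided exact permutation test, p = 0.1, adjusted p = 0.2 over 4 ratios). The JUN to JUND ratio, in FPKM, was 0.754, 0.751 and 0.76 in the NC and 0.598, 0.621 and 0.655 in the siEIF1 libraries. It differed by -0.27 in the log2 ratio of CPM (two-sided exact permutation test, p = 0.1, adjusted p = 0.2). The JUN to JUNB and JUNB to JUND ratios overlapped between the groups, with differences of -0.091 (exact permutation test, p = 0.8, adjusted p = 0.8) and -0.18 (exact permutation test, p = 0.3, adjusted p = 0.4). With 3 libraries against 3 the p cannot go below 0.1, so none of these tests could reach 0.05.

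Genes outside the 10 whose log2 CPM followed each member most closely over the 6 libraries were found among 12020 genes with a mean count of at least 100. For DUSP1 these were MYO19 (Pearson r 0.999), RHOT1 (0.999) and FANCA (0.998). For JUN they were CCDC120 (0.999), MCM2 (0.998) and PIM3 (0.997), and for FOSL1 they were PSMD14 (0.999), SLC20A1 (0.998) and EPS8 (0.998). All 9 fell at an edgeR adjusted p under 0.05, with log2 fold changes from -1.11 for FANCA to -0.22 for EPS8. For JUNB they were PSME3IP1, LRRC20 and NAA60 (r from 0.982 to 0.992) and for JUND they were RCC1, ZNNT1 and SPAG16 (r from 0.991 to 0.997). FAM131A, MDM2 and ATM were closest to FOSL2 (r from 0.987 to 0.991), and BAHD1, PRKACB and MED14 to IER2 (r from 0.983 to 0.990). ENY2, ZNF175 and LINC01128 were closest to FOSB (r from 0.957 to 0.978) and HDAC6, SUCLG2-AS1 and CRMP1 to EGR1 (r from 0.966 to 0.986), where few counts stand behind the profile. With 6 libraries in 2 groups, such values can follow from the split into groups or from a single library, which was not tested. They were picked as the highest among 12020 genes and are descriptions without a test.

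More of the other early response genes were called lower than higher. Of 44 listed, 36 were tested, and 15 were called lower and 6 higher (41.7% and 16.7%, against 10.4% and 10.2% of all tested genes), with a median log2 fold change of -0.17. Those with the smallest p-values among the lower genes were GADD45A, a stress sensor of growth arrest (-0.62, standard error 0.045), KLF10 (-0.44), MAFF, a small MAF protein (-0.71), and ATF3, a stress-induced partner of JUN (-0.47, standard error 0.059). For ATF3 the CPM was 43.8, 40.5 and 41.0 in the NC and 31.4, 29.3 and 29.9 in the siEIF1 libraries, so the groups were as fully apart as for JUN. Those called higher included BTG2, an antiproliferative factor (0.49, standard error 0.062), ID3 (0.74, standard error 0.13), RHOB (0.38) and ID1 (0.37), both ID proteins being inhibitors of helix-loop-helix factors. EGR3, EGR4, NPAS4 and PTGS2 were not among the genes with counts. Without siEIF1 replicate 2 the number called lower was 9, and over all tested genes the numbers then fell from 1744 lower and 1702 higher to 1124 and 1118.

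**Figure D5:**
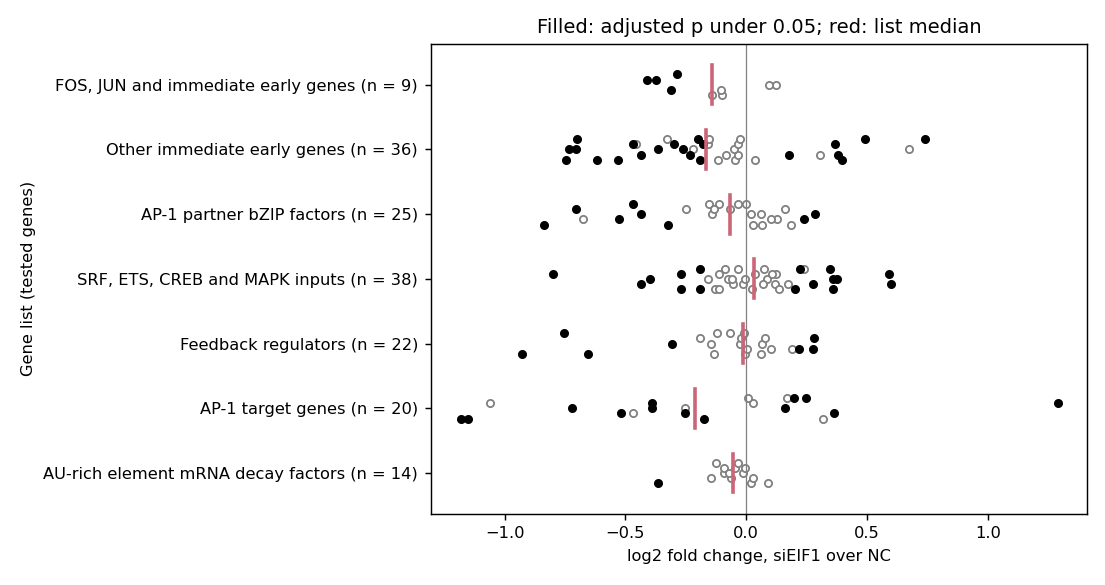
Log2 fold change, siEIF1 over NC, of every tested gene (points, filled where the edgeR adjusted p was under 0.05) among the 10 genes and in 6 further lists, those of cell type markers left out, with the list median as a red line. The medians plotted run from -0.21 for AP-1 target genes to 0.031 for the SRF, ETS, CREB and MAPK inputs.

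Among further basic leucine zipper factors that can pair with AP-1 subunits or their relatives, 25 of 28 were tested, and 6 were called lower and 2 higher (24% and 8%, where all tested genes gave 10.4% and 10.2%), with a median of -0.069. The lower ones included DDIT3 (-0.84), CEBPB (-0.53), MAFG (-0.43) and MAFF, and the higher ones were ATF4 (0.24, standard error 0.051) and ATF7 (0.28, standard error 0.087). MAFF and ATF3 are counted in both lists. Without NC replicate 1, NC replicate 2, siEIF1 replicate 2 or siEIF1 replicate 3, 1 in place of 2 was called higher.

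Of 39 kinases and factors that start the response, 38 were tested, with 7 called lower and 9 higher (18.4% and 23.7%, beside 10.4% and 10.2% of all tested genes) and a median of 0.031. SRF, which drives FOS and EGR1 through the CArG box, fell from 49.4, 52.1 and 50.7 CPM in the NC to 38.5, 34.8 and 39.3 in the siEIF1 libraries (log2 fold change -0.44, standard error 0.060, edgeR quasi-likelihood test, Benjamini-Hochberg adjusted p = 2.10e-04). ELK4, one of its ETS partners, rose from 39.3, 32.5 and 34.8 to 50.5, 48.8 and 61.2 CPM (0.59, standard error 0.088, edgeR quasi-likelihood test, Benjamini-Hochberg adjusted p = 4.00e-04). The other genes with the smallest p-values were MAP2K1, a kinase of ERK (-0.27), RPS6KA5, also called MSK1 (-0.80), and MAP3K5 (-0.40) among the lower, and MAPKAPK3 (0.36), MAP2K7, a kinase of JNK (0.38), and RPS6KA1 (0.35) among the higher. The number called lower was 3 without NC replicate 1, NC replicate 3 or siEIF1 replicate 2, and 4 without siEIF1 replicate 1.

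The list of 24 feedback regulators held further DUSP genes, SPRY, SPRED and NAB genes, and COP1, DET1, FBXW7 and ITCH. Of the 24, 22 were tested, with a median log2 fold change of -0.015. Of those tested, 4 were called lower and 3 higher (18.2% and 13.6%, against 10.4% and 10.2% of all tested genes). DUSP5 (-0.93, standard error 0.15), DUSP6 (-0.76, standard error 0.18) and DUSP4 (-0.31), phosphatases that act on ERK, and SPRY4 (-0.66), an inhibitor of receptor signalling, fell. DUSP3 (0.28), DUSP16 (0.28), which acts on JNK and p38, and NAB1 (0.22), a corepressor of EGR factors, rose. For DUSP5 the CPM was 103, 62.4 and 75.3 in the NC and 42.7, 35.8 and 47.7 in the siEIF1 libraries, so NC replicate 1 was the highest, as it was for FOSL1.

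Of 23 genes known as AP-1 targets, 20 were tested, with 8 called lower and 5 higher (40.0% and 25.0%, where all tested genes gave 10.4% and 10.2%) and a median of -0.21. CCND1, the G1 cyclin D1, was lowest, at 1127, 1029 and 1102 CPM in the NC and 446, 438 and 551 in the siEIF1 libraries (log2 fold change -1.18, standard error 0.079, edgeR quasi-likelihood test, Benjamini-Hochberg adjusted p = 6.61e-07). IL6 (-1.15, standard error 0.25), VEGFA (-0.39) and PLAUR, the urokinase receptor (-0.39), fell as well. KRT18 (0.25), also an epithelial marker, PLAU, the urokinase itself (0.36), CD44 (0.20) and SPP1 (1.29, at a mean count of 14.7) rose. CCND1, IL6 and SPP1 were the 3 that passed the fold limit. Without siEIF1 replicate 2 the number called lower was 5. The number called higher was 1 without NC replicate 2 and 3 without NC replicate 1, NC replicate 3, siEIF1 replicate 1 or siEIF1 replicate 3. MMP13 was not among the genes with counts, and MMP9 and MMP10 had mean counts of 1.50 and 0.33.

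AU-rich elements are the signal that makes FOS and many early transcripts short-lived. Factors that degrade or protect transcripts with these elements were called lower at a share near that of all tested genes. All 14 were tested, and 1 was called lower and 0 higher (7.14% lower, against 10.4% lower and 10.2% higher over all tested genes), with a median of -0.055. At an unadjusted p under 0.05 edgeR and DESeq2 each gave 2 lower and 0 higher, and limma on log2(FPKM + 1) gave 3 and 0. The one called was ZFP36, itself an early gene, at 10.4, 8.40 and 8.91 CPM in the NC and 7.79, 6.43 and 7.20 in the siEIF1 libraries (log2 fold change -0.37, standard error 0.11, edgeR quasi-likelihood test, Benjamini-Hochberg adjusted p = 0.033). Without NC replicate 1, NC replicate 3, siEIF1 replicate 2 or siEIF1 replicate 3, 0 genes of this list were called lower.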

How the data were processed

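RNA-seq of 3 NC and 3 siEIF1 libraries of ARPE-19 cells was analysed, grouped by sample title. The authors trimmed reads with FASTX-Toolkit, aligned them to GRCh38 with HISAT2 and deposited raw counts of uniquely mapped reads per gene, and FPKM values rounded to decimals. The counting program, strand setting and annotation release are not given in the sources used here, so counts of overlapping genes are uncertain. Library pairs within a group had counts that differed at 3.03 to 14.3 units of chi-square per degree of freedom, more than sampling noise.

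Counts were filtered with filterByExpr, TMM-normalized and tested with the quasi-likelihood test of edgeR 4.0.16 in R 4.3.3, with Benjamini-Hochberg adjustment over 16749 genes. The standard error is the log2 fold change divided by the square root of F. FPKM values were used to compare genes. Calls were made at adjusted p under 0.05. Locations came from GENCODE 44 and promoters from RefSeq. Gene identifiers of JUN and FOSB carry an older version in the counts than in that release. The fit was tested on simulated data.

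Alternatives were RLE and upper-quartile normalization, no filter or 10 counts in every library, DESeq2 1.42.0 (which the authors used), limma 3.58.1 on log2(FPKM + 1) or log2(FPKM + 0.1), a test against a fold of 1.2, the replicate number as a block, and leaving out each library. Named are the 10 genes, EIF1, from each list all called genes past the fold limit and up to 4 in each direction with the smallest p, and the 3 genes closest in profile to each member. Further list genes were chosen after seeing their values, and some listed genes are not reported here by name. The members and lists were chosen with earlier results of these data known. Markers were used as lists to check the cell type.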

Additional observations from a re-analysis of the deposited data

How the results depend on the processing

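The values for DUSP1 kept their direction and call under all 15 alternatives (log2 fold change -0.43 to -0.40, adjusted p up to 0.016), and JUN (adjusted p = 0.068) and FOSL1 (adjusted p = 0.71) lost their calls only in the test against a fold of 1.2 (edgeR glmTreat), which left 1 member called. JUNB lost its call under 7 of 15 alternatives. The number of members called lower was 3 to 4 with each library left out, and 0 members were called higher under any alternative. The value for EGR1 ran from -0.39 to 0.53 with each library left out, and reversed to 0.53 without NC replicate 2 and to 0.19 without siEIF1 replicate 1, DESeq2 gave no adjusted p for EGR1 or FOSB, and EGR1 could not be fitted under the filter of 10 counts, which it failed. The log2 fold change of EIF1 stayed between -3.61 and -3.55.

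Against a fold of 1.2, 488 genes were called lower and 270 higher, with 6 and 2 other immediate early genes, 0 leucine zipper factors higher, 1 lower and 1 higher of the SRF, ETS, CREB and MAPK inputs, 1 and 0 feedback regulators, 3 and 0 AP-1 targets, and 0 lower of the AU-rich element factors. These falls in number follow from the stricter test. With limma on log2(FPKM + 1) or log2(FPKM + 0.1), 1067 or 1071 genes were called higher and 20 or 164 passed the fold limit (286 on counts), with 1 leucine zipper factor higher, 3 inputs lower, 2 feedback regulators lower and 1 AP-1 target higher under both pseudocounts, and 0 AU-rich element factors lower with the pseudocount of 1. The cause was not tested. With each library left out, the calls were 1124 to 1763 lower and 1118 to 1709 higher over all genes, 9 to 15 lower other immediate early genes, 1 to 2 higher leucine zipper factors, 3 to 7 lower inputs, 5 to 8 lower and 1 to 4 higher AP-1 targets, and 0 to 1 lower AU-rich element factors.

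With the replicate block, 2 AU-rich element factors were called lower, 4 members were called lower and 0 higher, as without it, and 2128 genes were called lower and 2149 higher. Deviations of same-numbered libraries correlated at 0.15, 0.095 and 0.13, each the best match of its library, which is a hint from the data and not from the design, since the labels give only a shared number.

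Few counts limit FOS, FOSB and EGR1, and 3 libraries a group limit the rest. Changes are relative to the scaling of each library. The other normalizations moved the median of all genes by less than 0.1.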

Other observations

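Inside the NC group, replicate 1 stood above the other libraries for FOSL1 and for several genes of the feedback and AP-1 target lists, chosen here after their values were seen. DUSP6 was at 34.4 CPM in NC replicate 1 and at 19.8 and 22.2 in NC replicates 2 and 3, and SPRY4 at 9.37 against 5.45 and 6.76. IL6 was at 3.91 against 1.97 and 2.90. JUN and DUSP1 did not share this order, with NC replicate 2 the highest for both. In the siEIF1 group, replicate 2 was the lowest for FOSL1, DUSP5, DUSP6, SPRY4 and IL6. The source of these differences between replicates was not tested.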
